A study of Arabidopsis thaliana with 9 samples.

Results

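HYH (AT3G17609) and FHL (AT5G02200) are genes of the Arabidopsis light signalling pathway, described here in seedlings grown in darkness. They were chosen by name, with earlier results of these data known. Each had 1 probe set annotated to it alone, 258349_at for HYH and 251026_at for FHL. They are 2 of the 13356 genes that the platform annotation paired with a probe set of their own. RNA of whole Col-0 seedlings grown 4 days in darkness on plates of Murashige-Skoog medium containing sucrose was hybridised to Affymetrix arrays, 1 array per sample. The genotypes were wild type, the cop1-4 mutant and a cop1-4 line with the construct labelled BBX22-GFPox, at 3 biological replicates each. The construct is read here as overexpression of a fusion of BBX22 to green fluorescent protein, and its promoter and the number of lines are not given in the labels. It was studied only in cop1-4, so the third genotype differs from wild type in the allele and the construct together.

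COP1 is a ubiquitin ligase that, in darkness, marks transcription factors of the light response for degradation, and cop1-4 is a viable allele, making a shortened protein, whose seedlings develop in darkness partly as if in light. HYH is a bZIP transcription factor, a homolog of HY5, that binds G-box promoter elements and is itself a COP1 substrate. FHL, together with its relative FHY1, carries light-activated phytochrome A into the nucleus, where the far-red response starts, and the factors FHY3 and FAR1 activate transcription of both import genes. BBX22 is a B-box protein that promotes the light response and is also degraded through COP1. The values below are transcript levels and say nothing of the proteins.

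The first replicate of each genotype differed from the other 2. Across probe sets it correlated with them at 0.816 to 0.926 within a genotype, where replicates 2 and 3 correlated at 0.982 to 0.989. For that reason each difference is also given within the replicate numbers. The median signal of the 9 arrays ran from 147 to 189, and no pair of arrays was identical (0 of 36). The genotype labels could not be checked on COP1 or BBX22, whose transcripts, like that of HY5, were not analysed here.

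HYH was lowest in wild type, intermediate in cop1-4 and highest in cop1-4 BBX22-GFPox. The signals of replicates 1, 2 and 3 were 71.4, 137.1 and 136.9 in wild type. In cop1-4 they were 254.2, 202.7 and 202.9, and in cop1-4 BBX22-GFPox they were 346.3, 619.7 and 683.8. No array of one genotype overlapped with an array of another, so the order of the 3 genotypes was the same whichever arrays were compared. Of 15922 tested probe sets, 123 (0.773%) stood in this upward order without overlap, and 178 (1.12%) in the reverse order. Mean signals were 115 ± 37.9 (SD, n = 3) for wild type, 219.9 ± 29.7 for cop1-4 and 549.9 ± 179 for cop1-4 BBX22-GFPox. In whole seedlings, fewer cells that express a gene and less RNA per cell cannot be told apart.

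FHL ran the other way. Its signals in replicates 1, 2 and 3 were 354.8, 243.9 and 268.6 in wild type. In cop1-4 they were 150.1, 89.8 and 81.0, and in cop1-4 BBX22-GFPox they were 118.9, 33.5 and 69.6. Wild type lay above both other genotypes on all arrays, whereas cop1-4 and cop1-4 BBX22-GFPox overlapped. Wild type was above both others without overlap in 3039 tested probe sets (19.1%). Mean signals were 289 ± 58.2 (SD, n = 3) for wild type, 107 ± 37.6 for cop1-4 and 74.0 ± 42.9 for cop1-4 BBX22-GFPox.

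**Figure D1:**
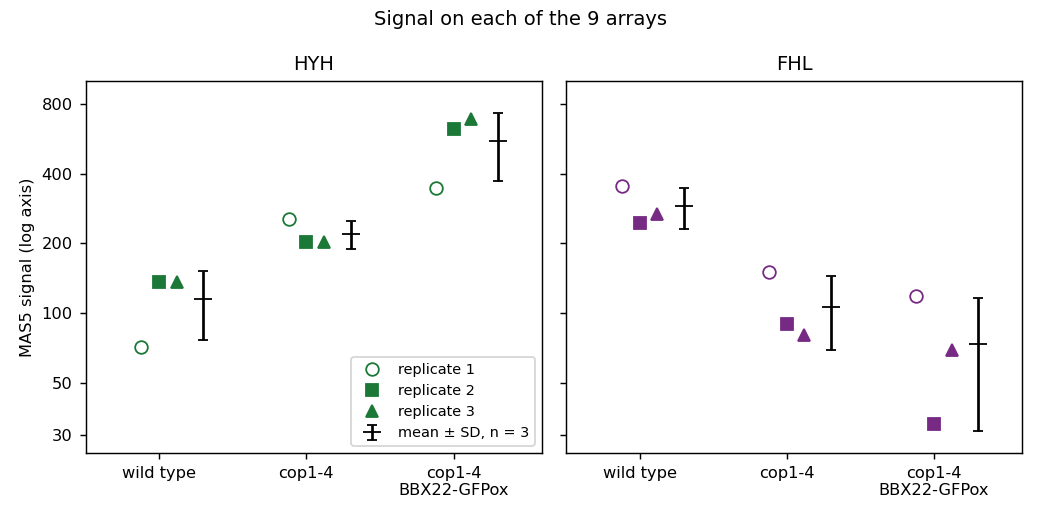
MAS5 signal of HYH (left) and FHL (right) on each of the 9 arrays by genotype, on a log axis, with the marker showing the replicate number and the bar the mean ± SD of 3 arrays. HYH runs from 71.4 in wild type to 683.8 in cop1-4 BBX22-GFPox with no overlap between genotypes, and FHL from 354.8 in wild type down to 33.5.

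The first comparison asked how these transcripts differ with the cop1-4 allele in darkness. FHL fell in cop1-4, with a mean signal 2.70-fold lower than in wild type. Its log2 change of signal plus an offset of 24.5 was −1.27 (SE 0.349, 95% interval −2.07 to −0.48, limma adjusted p = 0.0288). In the same comparison limma called 25.8% of all tested probe sets at an adjusted p under 0.05, 11.3% as raised and 14.5% as lowered, so the call itself was common. Median scaling turned that balance round, with 2294 raised and 1733 lowered against 1795 and 2305. A fall larger than that of FHL was seen in 8.31% of tested probe sets. HYH had a mean signal 1.91-fold higher in cop1-4, a log2 difference of 0.84 (SE 0.305, 95% interval 0.15 to 1.53), which missed the threshold (limma adjusted p = 0.0724). With the replicate number as a block HYH was called (limma adjusted p = 0.0293), where 44.6% of all probe sets were called, 19.9% as raised and 24.6% as lowered. It was also called with replicate 1 against replicates 2 and 3 as a batch term (limma adjusted p = 0.0162, beside 49.7% called and 22.1% raised) and in replicates 2 and 3 alone (0.0160, beside 62.4% and 28.7%). A rise larger than that of HYH was seen in 16.1% of tested probe sets. Without overlap, 19.2% lay above wild type in cop1-4 and 25.7% below, HYH among the former and FHL among the latter. The exact two-sided permutation test gave p = 0.1 for either gene, the smallest p that 3 arrays against 3 allow.

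Other scalings moved the log2 differences of both genes upward, and only their calls went opposite ways. With median scaling HYH went from 0.84 to 0.95 and FHL from −1.27 to −1.16. When every array was scaled to the same median, FHL lost its call (limma adjusted p = 0.0649) and HYH gained one (limma adjusted p = 0.0430). Quantile normalization did the same, with limma adjusted p = 0.0537 for FHL and 0.0457 for HYH. Over all probe sets the median log2 difference was −0.11, and 0.01 after median scaling. FHL also lost its call without any one of 5 arrays, wild type replicate 1 (limma adjusted p = 0.0932), 2 (0.0594) or 3 (0.0734) and cop1-4 replicate 2 (0.0923) or 3 (0.0907), while its log2 change stayed between −1.50 and −1.13 over all 9 omissions.

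The size of the HYH difference was not the same in all replicates. Within replicate 1 the HYH signal was 3.56-fold higher in cop1-4 than in wild type. Within replicates 2 and 3 it was 1.48-fold higher in each. On the log2 scale these are 1.54 in replicate 1 against a mean of 0.49 in replicates 2 and 3. With 1 array per genotype in replicate 1, this gap has no replicate check of its own. FHL was 2.36-fold, 2.72-fold and 3.32-fold lower in cop1-4 within replicates 1, 2 and 3.

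The second comparison asked what the construct changed in the cop1-4 background. HYH was higher with BBX22-GFPox on all arrays, with a mean signal 2.50 times that of cop1-4. The log2 difference was 1.18 (SE 0.305, 95% interval 0.49 to 1.88). It did not pass after adjustment over all probe sets (limma adjusted p = 0.233), nor with the replicate block (limma adjusted p = 0.0814). The comparison called 0.301% of tested probe sets, 0.283% as raised and 0.0188% as lowered. With the block it called 1.29%, 1.04% as raised. A larger rise than that of HYH was seen in 1.79% of tested probe sets, and 6.37% lay above cop1-4 without overlap and 4.99% below.

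Here the replicate 1 value was the lowest of the 3. The HYH signal with the construct was 1.36-fold that of cop1-4 within replicate 1, 3.06-fold within replicate 2 and 3.37-fold within replicate 3. The log2 difference was 0.41 in replicate 1 and 1.57 on average in replicates 2 and 3. In replicates 2 and 3 alone HYH was called (limma adjusted p = 8.51e-06), where 24.2% of all probe sets were called, 12.7% as raised, and p-values measure the spread between those arrays only. With the batch term HYH was also called (limma adjusted p = 0.0351), where 2.71% of all probe sets were called, 1.91% as raised.

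FHL showed no called difference between cop1-4 BBX22-GFPox and cop1-4. Its mean signal was 1.45-fold lower with the construct, and the groups overlapped (log2 difference −0.48, SE 0.349, 95% interval −1.27 to 0.32, limma adjusted p = 0.956). The exact two-sided permutation test gave p = 0.4. The interval spans 0, so neither a fall nor a small rise was resolved at this number of arrays. Within replicates 1, 2 and 3 the signal was 1.26-fold, 2.68-fold and 1.16-fold lower. The value of 33.5 in replicate 2 is close to the offset of 24.5, which compresses the log2 scale there.

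In the third comparison, of cop1-4 BBX22-GFPox with wild type, both genes were called, in opposite directions. HYH rose 4.78-fold in mean signal (log2 change 2.03, SE 0.305, 95% interval 1.33 to 2.72, limma adjusted p = 0.00311). FHL fell, with a mean signal 3.91-fold lower (log2 change −1.75, SE 0.349, 95% interval −2.54 to −0.96, limma adjusted p = 0.00962). The comparison called 21.5% of tested probe sets, 9.8% as raised and 11.7% as lowered, and without overlap 19.2% lay above wild type and 24.6% below. Median scaling gave 1855 raised and 1510 lowered, against 1561 and 1866. Larger changes in the same direction were seen in 2.17% of tested probe sets for HYH and in 3.09% for FHL. Both calls held without any one of the 9 arrays, with limma adjusted p of up to 0.0172 for HYH and up to 0.0380 for FHL.

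The HYH rise over this whole span was of similar size in each replicate. It was 4.85-fold in replicate 1, 4.52-fold in replicate 2 and 4.99-fold in replicate 3. For FHL the fall was 2.98-fold, 7.28-fold and 3.86-fold in the same order. The comparisons share the wild type or the cop1-4 arrays, so they are not independent of one another.

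**Figure D2:**
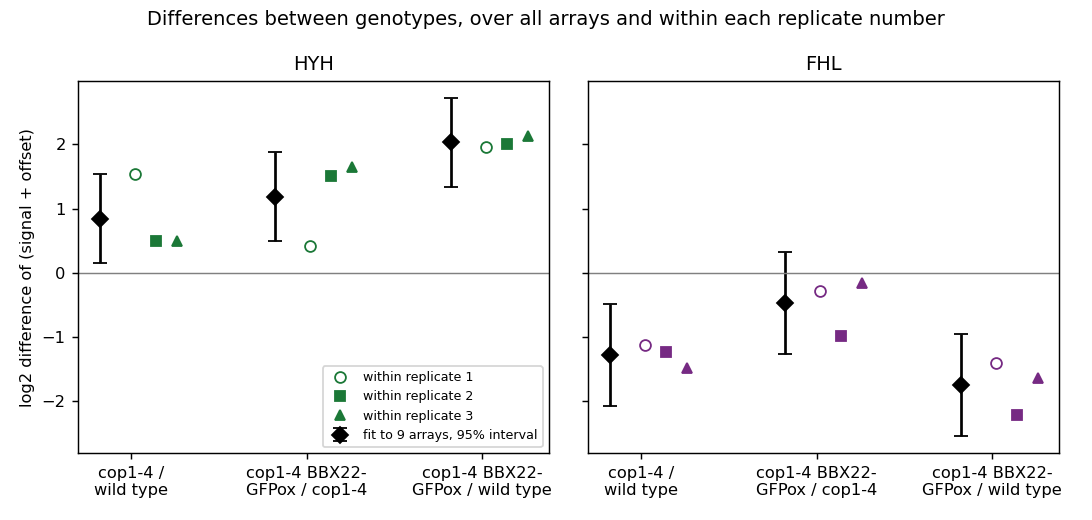
Difference in log2(signal + offset) between genotypes for HYH (left) and FHL (right), as the fit to 9 arrays with its 95% interval (black) and within replicate 1 (open), 2 and 3 (filled). The replicate 1 point of HYH lies above the others for cop1-4 against wild type (1.54 against 0.49 and 0.49) and below them for the construct (0.41 against 1.50 and 1.64), while the 3 points meet at 1.95 to 2.13 for cop1-4 BBX22-GFPox against wild type.

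**Figure D3:**
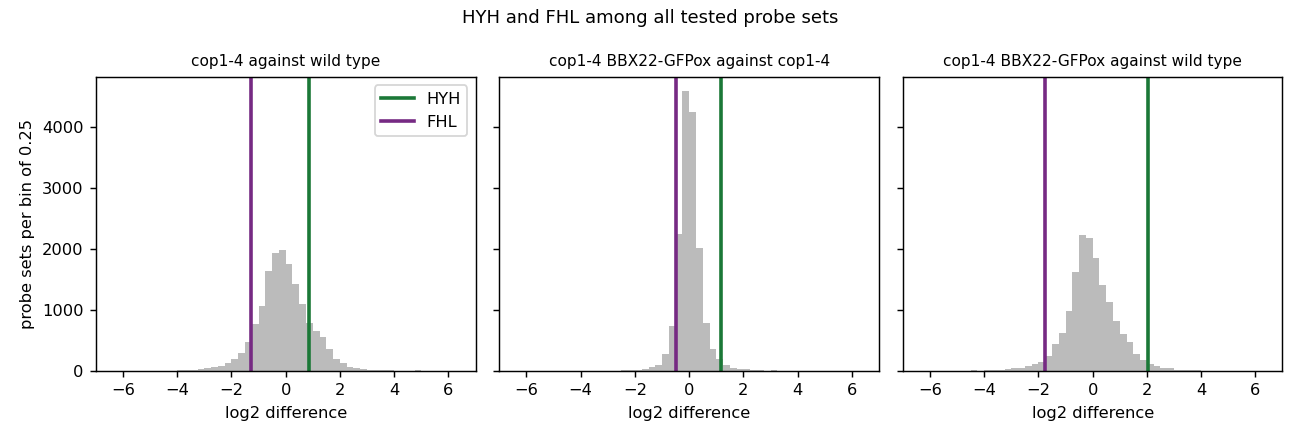
Number of probe sets per log2 difference among all 15922 tested in each comparison (grey bars), with HYH (green) and FHL (purple) as lines. Between cop1-4 BBX22-GFPox and cop1-4 the bars are narrow and HYH, at 1.18, lies in their upper edge, with 1.79% of probe sets beyond it.

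A factor that scales a whole array acts on both genes alike, so the ratio of HYH to FHL within an array was also compared. Only its change between genotypes is given, since signals of different probe sets are not on a common scale. The log2 ratio was higher by 2.12 in cop1-4 than in wild type, and the 3 same-numbered pairs gave 2.66, 1.72 and 1.97. It was higher by a further 1.66 in cop1-4 BBX22-GFPox than in cop1-4, with 0.70, 2.48 and 1.80 in the pairs. From wild type to cop1-4 BBX22-GFPox the change was 3.78. The groups did not overlap in any of these comparisons, and each exact two-sided permutation test gave p = 0.1, the smallest possible. In both comparisons with wild type this was fixed beforehand, since HYH lay above and FHL below wild type on all arrays. There the ratio adds no evidence to that of the single genes. The size depended on the offset, and with the larger one at the 40th percentile the change was 1.51 in cop1-4 and 2.77 in cop1-4 BBX22-GFPox against wild type.

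Of 100 genes in 8 lists of the light signalling pathway, 5 had a probe set of their own in the annotation used here, and the others were not analysed here. They are HYH, FHL, CUL4, CSN5B and DFR. In cop1-4 against wild type 1 of the 5 fell, FHL, and 0 rose (limma), beside 14.5% and 11.3% of all probe sets. In cop1-4 BBX22-GFPox against cop1-4 0 were called, beside 0.301% of all, and the replicate block also called 0, beside 1.29%. HYH alone of the 5 had an unadjusted limma p under 0.05 there, as did 1194 of the 15922 probe sets. Among the repressors of the light response, CUL4 (AT5G46210), the cullin scaffold of ligases that work with COP1, had a mean signal of 1413 in wild type, 1514 in cop1-4 and 1451 with the construct. Its log2 difference between cop1-4 and wild type was 0.09 (limma adjusted p = 0.786). CSN5B (AT1G71230), a subunit of the COP9 signalosome, had means of 119.5, 65.0 and 127.1 in the same order, and neither step was called (limma adjusted p = 0.241 and 0.812).

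DFR (AT5G42800) encodes an anthocyanin pathway reductase and is a textbook output of light signalling. It resembled HYH in one respect. Its signals in replicates 1, 2 and 3 were 40, 138 and 209.4 in wild type and 32.7, 106.2 and 202.8 in cop1-4. With the construct they were 56.2, 1509.5 and 1192.4, so the high values lay in replicates 2 and 3. Its log2 difference between cop1-4 BBX22-GFPox and cop1-4 was 2.16 (limma adjusted p = 0.771), and against wild type it was 1.98 (limma adjusted p = 0.220, and 0.0182 with the replicate block, which called 40.7% of all probe sets and 18.9% as raised). In replicates 2 and 3 alone DFR, like HYH, was called against cop1-4 (limma adjusted p = 9.8e-07). That fit called 24.2% of all probe sets, 12.7% as raised. Between cop1-4 and wild type DFR overlapped, where HYH did not (log2 difference −0.18, limma adjusted p = 0.918).

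Among the 9 tested genes with a bZIP number as symbol, 0 were called as raised in any of the 3 comparisons (limma). Over all probe sets 11.3%, 0.283% and 9.8% were called as raised, so 0 of 9 is near the background. Of 14 genes with a bZIP number as symbol, 9 passed the filter on dim probe sets, and in cop1-4 against wild type 4 fell and 0 rose (limma), beside 14.5% and 11.3% of all probe sets. Their median log2 difference was −0.52, where that of all probe sets was −0.11. BZIP61 (AT3G58120) was at 1562.2, 1169.9 and 1420.7 in replicates 1, 2 and 3 of wild type and at 654.3, 426.8 and 596.7 in cop1-4, with no overlap. It fell by 1.28 on the log2 scale (limma adjusted p = 0.00608), and this call held without any one of the 9 arrays.

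BZIP28 (AT3G10800), a membrane-bound factor of the endoplasmic reticulum stress response, fell by 0.95 (limma adjusted p = 0.0162). bZIP44 and bZIP52 fell by 1.15 each (limma adjusted p = 0.0416 and 0.0429). These 3 calls were lost without any one of 4, 6 and 8 arrays, with limma adjusted p of up to 0.0556, 0.112 and 0.119. The same 4 genes were lowered in cop1-4 BBX22-GFPox against wild type, which uses the same wild type arrays. There 11.7% of all probe sets were called as lowered and 9.8% as raised. BZIP28, bZIP44 and bZIP52 lost that call without any one of 7, 3 and 6 arrays. With the construct in cop1-4 0 of the 9 were called by limma, 0 with the replicate block and 0 had an unadjusted p under 0.05. Over all probe sets those shares were 0.301%, 1.29% and 1194 of 15922, so 0 of 9 is near the background. Their median log2 difference was 0.08, where that of all probe sets was −0.00. HYH at 1.18 lay above all 9 there, and BZIP17, the highest of them, was at 0.29.

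**Figure D4:**
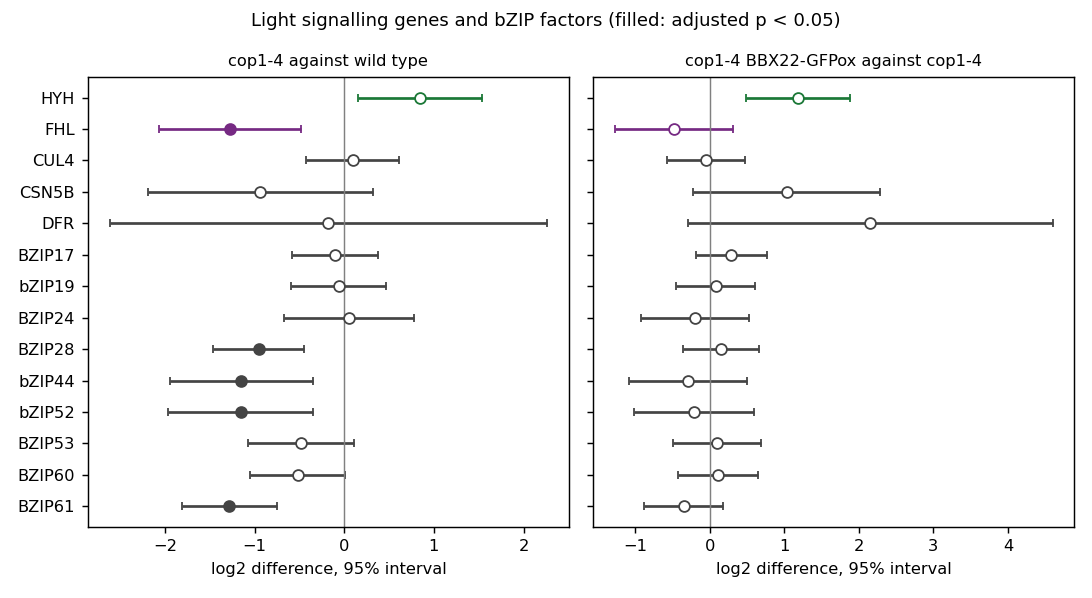
Log2 difference with its 95% interval for HYH, FHL, CUL4, CSN5B, DFR and the 9 tested bZIP factors, in cop1-4 against wild type (left) and cop1-4 BBX22-GFPox against cop1-4 (right), with filled points for an adjusted p under 0.05. On the left FHL and 4 bZIP factors are filled and all 5 lie below 0; on the right no point is filled and DFR has the widest interval.

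Genes on the chromosome next to HYH and FHL were examined for a shared regional pattern. The nearest genes with a probe set of their own on either side of HYH, IAA31 and AT3G17620, were too dim to be tested, with signals of 0.8 to 58.4 and 1.7 to 36.1. Mean signals in wild type, cop1-4 and cop1-4 BBX22-GFPox were 6.1, 26.9 and 41.7 for IAA31 and 7.6, 15.6 and 3.63 for AT3G17620. Only IAA31 between cop1-4 BBX22-GFPox and wild type was without overlap, and 19.2% of tested probe sets lay above wild type in that way. On one side of FHL AT5G02210 was also too dim (1.5 to 36.0). On the other side AT5G02180, with 1 annotated gene between, rose in cop1-4 from 39.9 to 160 in mean signal, the opposite direction to FHL. Its log2 change was 1.55 (limma adjusted p = 0.00315), where 11.3% of all probe sets were called as raised.

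The genes with profiles most like those of HYH and FHL were found by Pearson correlation of log2 values over the 9 arrays, among 8602 other genes. For HYH they were AT1G06690 (r = 0.992), AT3G56290 (0.984), AT1G50450 (0.979), AT5G35970 (0.976) and AT5G57345 (0.974). For AT1G06690 mean signals were 243 for wild type, 432 for cop1-4 and 1210.5 with the construct. Like HYH it was low in replicate 1 of wild type (190.1 against 282.9 and 257.1) and of cop1-4 BBX22-GFPox (704.0 against 1466.1 and 1461.3), but not of cop1-4 (507.1 against 386.5 and 402.7). Since the 5 genes were chosen for their likeness to HYH on these arrays, their differences between genotypes are not tested here.

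For FHL the closest were AT1G27670 (r = 0.977), AT4G38250 (0.974), TBL23 (0.973), STR18 (0.971) and AT2G20950 (0.970). STR18 (AT5G66170) had mean signals of 6446, 1301 and 973 in wild type, cop1-4 and cop1-4 BBX22-GFPox, and AT1G27670 had 622, 216 and 104. TBL23 followed the same profile with a small range, from 411 to 289 in mean signal. The 9 arrays share the genotype differences and the replicate 1 shift, and both enter these correlations.

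**Figure D5:**
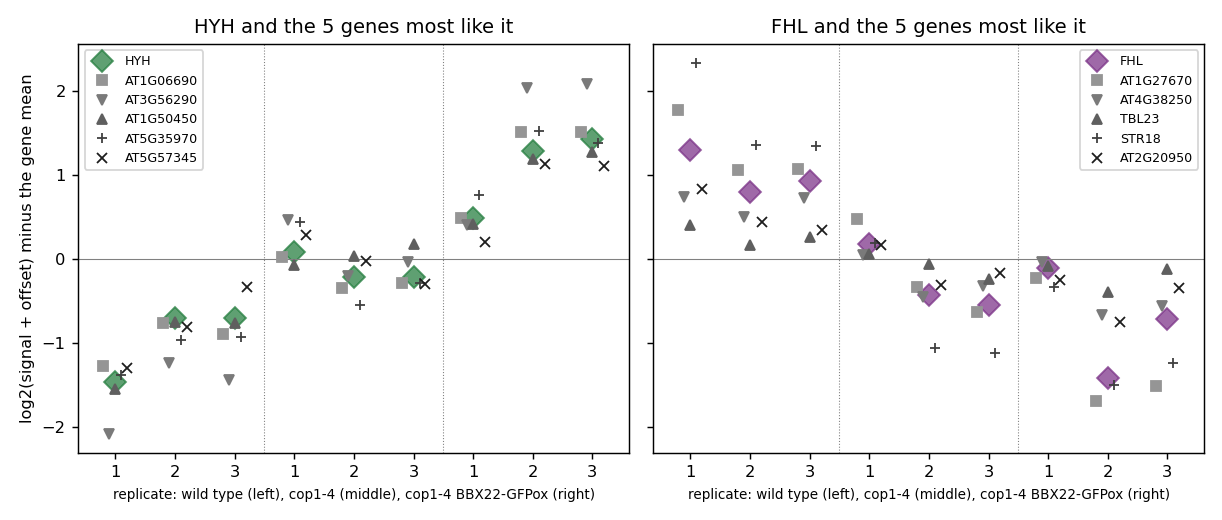
Log2(signal + offset) minus each gene's mean on the 9 arrays for HYH (left, diamonds) and FHL (right, diamonds) with the 5 genes most like each. The 5 genes were chosen by correlation over these same arrays, so their likeness to HYH or FHL follows from that choice. In the left panel the replicate 1 points of cop1-4 BBX22-GFPox lie below those of replicates 2 and 3 for all 6 genes, and in the right panel the wild type points all lie above 0.

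Markers of the parts and stages of the seedling were measured beside these genes, and their part in the results was not tested. Of 21 fixed markers 7 had a probe set of their own, none was at 0 on any array (0 values), and 6 passed the filter. The summed signal of the root hair markers EXPA7 and EXPA18 ran from 47.0 to 609.5 in wild type, 196.3 to 1048.6 in cop1-4 and 100.9 to 948.8 with the construct. The lowest sum of each genotype was that of replicate 1. There EXPA18 was at 40.4, 64.3 and 33.8 in the same order, and in replicates 2 and 3 it ran from 373.9 to 750.3. Neither EXPA7 nor EXPA18 was called in the main fit. With the replicate block both were called as raised in cop1-4 against wild type (limma adjusted p = 0.0186 and 0.0250). That fit called 44.6% of all probe sets, 19.9% as raised. The summed signal of the stomatal markers SPCH, MUTE and FMA (known as FAMA) ran from 105.3 to 135.8, 213.4 to 231.3 and 276.3 to 340.4 in the same order. FMA was called as raised against wild type with the construct (limma adjusted p = 0.0259, lost without any one of 5 arrays), as were 9.8% of all probe sets. With the replicate block FMA was also called as raised in cop1-4 against wild type (limma adjusted p = 0.0114). The block called SPCH as raised with the construct against wild type (limma adjusted p = 0.0309), as it did 18.9% of all probe sets. The sums did not overlap between genotypes, an upward order that 0.773% of tested probe sets had singly. Taken singly, SPCH, FMA and the dim MUTE each overlapped between cop1-4 BBX22-GFPox and cop1-4. SPCH and MUTE also overlapped between cop1-4 and wild type, and MUTE between cop1-4 BBX22-GFPox and wild type. PORB of the etiolated cotyledon ran from 8669 to 15508, 1329 to 2157 and 558 to 1109, downward without overlap like 1.12% of probe sets. The seed oleosin gene OLEO3 ran from 1959.6 to 2322.5 in wild type, 45.6 to 69.1 in cop1-4 and 35.9 to 98.9 with the construct. PORB and OLEO3 were called as lowered in cop1-4 against wild type (limma adjusted p = 0.00140 and 7.6e-05), as were 14.5% of all probe sets.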

How the data were processed

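The deposited values are intensities of 22746 probe sets on a linear scale, made by the authors with MAS5 per the submitters' processing notes. Neither its version nor its target intensity is stated in these sources, and the files hold no detection calls. The platform annotation gave 1 gene for 13513 probe sets, several for 503 and none for 8730. Of the first, 13436 matched a TAIR10.1 gene table used only for names and gene order.

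Signals were transformed as log2(signal + 24.5), with the 20th percentile over the whole table as the offset. Dim probe sets, with a mean log2 value below the 30th percentile, were left out, and 15922 stayed. A linear model with 1 mean per genotype was fitted to the 9 arrays with limma 3.58.1 (trended eBayes) in R 4.3.3, two-sided, with Benjamini-Hochberg adjustment over all kept probe sets within each comparison and calls at an adjusted p under 0.05. "Rose", "fell" and "raised" denote calls. The fit was tested on simulated data. The number of arrays limits the precision, and each p-value reflects only the spread among these samples, whose separate sowing is not stated.

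Replicate numbers come from the labels. After subtracting genotype means, same-numbered arrays correlated at 0.375 to 0.806 in their 9 pairs, and the block fit uses the number. Replicates 2 and 3 of different genotypes correlated across numbers as well, at 0.337 to 0.739, so the correlations set replicate 1 apart and do not separate 2 from 3. Alternatives were other offsets, scalings, filters and variance models, array weights, the replicate block, a batch term for replicate 1, replicates 2 and 3 alone, and each array left out. The named genes are HYH, FHL, tested members of the lists, the 5 genes most like each, and the nearest measured gene on each side. A gene with more than 1 probe set was represented by its brightest. The genes and lists were chosen with earlier results of these data known, and the list of bZIP factors was added after the annotation had been seen. An interaction of genotype with replicate 1, added later, is not reported because replicate 1 holds 1 array per genotype. No sequences are printed because none were given.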

Additional observations from a re-analysis of the deposited data

How the results depend on the processing

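The rise of HYH and the fall of FHL in cop1-4 BBX22-GFPox against wild type kept direction and call under all alternatives run, 13 for HYH and 12 for FHL, which the filter at the 50th percentile removed, and under the 9 omissions of an array. No result for either gene changed sign. For HYH in cop1-4 against wild type, a call was gained with quantile normalization (log2 0.93), median scaling (0.95), the replicate block (0.84), the batch term (0.84), replicates 2 and 3 alone (0.49) and array weights (0.57). The limma adjusted p ran from 0.0107 to 0.103 over the 13 alternatives. Leaving out 1 array gave 0.59 to 0.97, with a call only without cop1-4 BBX22-GFPox replicate 1 (adjusted p = 0.0331). For HYH with the construct in cop1-4, a call was gained with the batch term (1.18), replicates 2 and 3 alone (1.57) and array weights (1.53), and omissions gave 1.01 to 1.47 with none called. The call of FHL in cop1-4 was lost with quantile normalization (−1.17) and median scaling (−1.16), and omissions gave −1.50 to −1.13. FHL between cop1-4 BBX22-GFPox and cop1-4 was called in none of its 12 alternatives, and omissions moved its −0.48 to between −0.79 (without cop1-4 BBX22-GFPox replicate 1) and −0.14 (without replicate 2), with none called. The change in the HYH to FHL ratio was 1.51 in cop1-4 and 2.77 in cop1-4 BBX22-GFPox against wild type with the offset at the 40th percentile, which compresses both genes by construction. Paired by replicate number, that ratio changed by the same amounts, and 3 pairs allow no exact p below 0.25.

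Calls over all probe sets numbered 4100, 48 and 3427 in the 3 comparisons in the order of the report. They were 7096, 206 and 6479 with the replicate block, 7910, 432 and 7250 with the batch term, 9932, 3856 and 9590 in replicates 2 and 3 alone, and 9776, 3510 and 9389 with array weights. For the construct in cop1-4 they were 27 with the filter at the 50th percentile and 14 with only the compared genotypes fitted. Omissions gave 2214 to 5641, 11 to 372 and 1819 to 4820. The replicate block changed the call of HYH in cop1-4 against wild type and no other call of HYH or FHL. The causes of these shifts were not tested. Of the bZIP factors lowered in cop1-4, 4 in the report, 5 were called with the block and 2 with only the compared genotypes fitted, and omissions gave 1 to 4. Where FHL is near the offset, depth of signal limits the log2 values.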

Other observations

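The 5 bZIP factors too dim for the fit are given as signals without a test, and they did not run one way. BZIP34 was at 100.2, 71.5 and 73.5 in replicates 1, 2 and 3 of wild type, at 20.5, 27.7 and 42.4 in cop1-4 and at 14.6, 7.2 and 6.3 in cop1-4 BBX22-GFPox. Its genotypes did not overlap and ran in the order of FHL, opposite to HYH. Among the tested probe sets, 178 or 1.12% ran downward through all 3 genotypes without overlap, but BZIP34 was too dim to be one of them. No such share was counted for dim probe sets, so how common this order is among them was not tested. bZIP48 was at 185.9, 87.6 and 103.9 in wild type, at 67.0, 4.9 and 5.9 in cop1-4 and at 91.5, 18.7 and 15.8 with the construct, with its highest value in replicate 1 of each genotype. bZIP43 was at 6.6, 2.1 and 3.8 in wild type, at 13.2, 12.9 and 16.7 in cop1-4 and at 5.2, 12.8 and 2.2 with the construct, so cop1-4 was above both other genotypes. bZIP58 was at 64.4, 47.6 and 68.8, at 45, 20.3 and 28.4 and at 52.2, 48 and 45.4 in the same order. It was lowest in cop1-4 without overlap, though by only 45 against 45.4 for the construct. Shares over all probe sets were not counted for the orders of bZIP43 and bZIP58. bZIP42 overlapped in all comparisons, with signals from 2.1 to 39.7. FHL also had its highest value in replicate 1 of each genotype, 1.38-fold, 1.76-fold and 2.31-fold the mean of replicates 2 and 3 in wild type, cop1-4 and cop1-4 BBX22-GFPox. HYH in replicate 1 was 0.521 of that mean in wild type, 1.25-fold it in cop1-4 and 0.531 of it in cop1-4 BBX22-GFPox.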
